A study of Mus musculus with 12 samples.

Results

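The retina of adult C57BL/6NCrSlc mice, called B6 here, was compared between its intact state and an explant kept for 3 days in vitro (3DIV) with CHIR99021, an inhibitor of the kinase GSK3. All 4 arrays of those groups were used, 2 normal retinas and 2 CHIR99021 explants, of 12 arrays in the series. All 45037 probe sets that are not array controls were tested, so no transcript was picked for testing by its values. The gene lists, however, were chosen with earlier results of these data known, and many genes are named for the size of their change. Mice were 10 weeks old and, per the study's methods, male, with 2 retinas for each condition. The inhibitor was given at 15 µM per the labels. The B6 vehicle explant, 2 arrays of the same age and time in medium with 0.05% DMSO, served to tell apart what culture did and what the inhibitor added. Explant medium also held EdU, a label of DNA synthesis, per the methods. The other 6 arrays were the same groups of 129X1/SvJJmsSlc mice, called 129. The label of each array marks its replicate as biological. Neither labels nor methods say whether the 2 arrays of a group came from 1 animal. The p-values therefore measure the spread between these arrays, which may lie within 1 animal.

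Explanting a retina cuts the axons of the ganglion cells, ends the contact between photoreceptors and the pigmented epithelium, and stops the blood supply. Müller glia, the radial glia of the retina, and microglia, its resident macrophages, respond to such injury. GSK3 marks beta-catenin for destruction, so that its inhibition turns on the Wnt pathway, and it also acts on glycogen synthesis, on microtubule-binding proteins and on many transcription factors. In tissue RNA, fewer cells of a type and less RNA per cell cannot be told apart.

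With CHIR99021 for 3 days, the B6 retina lay far from its intact state on both sides. Interferon-inducible genes (median 3.53 on the log2 scale over 34 genes), reactive glial genes (2.40 over 33) and ATF4 stress targets (1.254 over 30) lay above the normal level, and genes of rods (-1.60 over 30), of cones (-1.52 over 14) and of glycolysis (-0.66 over 34) lay below it. The inhibitor carried 17 of the rod genes, 16 of the ATF4 targets and 14 of the interferon genes further from the normal level than vehicle did, beside 5.90% of all genes. It brought 23 of 41 microglial genes and 14 of 22 genes of cholesterol synthesis back toward that level, beside 5.71% of all genes. Of these 14 cholesterol genes, 3 went past the normal level. Rod genes lower than with vehicle numbered 17, and as few as 10 without 1 array. ATF4 targets and interferon genes higher than with vehicle numbered 22 and 14, and as few as 12 and 9 without 1 array.

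Median intensities of the 12 arrays lay between 68.7 and 70.6 after the authors' RMA normalization, and the 2 arrays of each B6 group correlated at r = 0.9965 to 0.9974 over all probe sets on the log2 scale. The 30 rod genes summed to 225000 and 228000 on the normal arrays. The 19 markers of pigmented epithelium and melanocytes summed to 15600 and 17900 on the normal arrays and to 4230 to 5190 on the 4 B6 explant arrays. The neural retina had been separated from that epithelium before culture, per the methods, and the part of carried-over epithelium in the results was not tested. The 16 lens markers summed to 1220 and 1390 in B6 normal retina, 4490 to 6190 in B6 explants, and 2390 and 37000 on the 2 arrays of 129 normal retina, the last of which stands apart. Their median log2 difference from B6 normal retina was only -0.14 with vehicle and 0.09 with CHIR99021, so the higher sums do not describe most members. Cryab had the largest difference of these markers with CHIR99021, 2.81, and differed by 2.44 with vehicle. Markers of T cells and erythrocytes summed to 300 to 339 and 44.0 to 51.8 in every B6 group.

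The CHIR99021 explant differed from the normal retina in 16704 of 45037 probe sets (37.1%; Benjamini-Hochberg adjusted p under 0.05, limma), 7995 higher and 8709 lower. Of these, 1563 were at least 2-fold higher and 1222 at least 2-fold lower. The vehicle explant differed from the normal retina in 14188 probe sets (31.5%), 6714 higher and 7474 lower, and 1206 and 784 of them by at least 2-fold. Between the 2 kinds of explant 8379 probe sets differed (18.6%), 4243 higher and 4136 lower with CHIR99021, with 264 and 225 at least 2-fold. All values below are differences on the log2 scale of the RMA intensities unless they are called intensities, and SE stands for the standard error of the fit.

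Prss56, a secreted serine protease, had the largest rise. Its intensities were 70.6 and 74.5 in normal retina, 22.2 and 17.2 in vehicle explants and 4676 and 5009 in CHIR99021 explants. The vehicle explants lay below the normal retina and the CHIR99021 explants far above it, with no overlap. Its difference was 6.06 ± 0.12 (SE, n = 2 against 2; adjusted p = 3.67e-10) against the normal retina and 7.95 against the vehicle explant. The next 7 rises were in Rsad2, an antiviral protein (5.73), Lgals3, the lectin galectin-3 (5.72), Mmp12, the macrophage metalloelastase (5.66), the zinc finger factor Egr2 (5.64), the stress protein Nupr1 (5.46), Sprr1a, a protein of injured axons (5.19), and Ifit1, an antiviral protein (5.16). Each of these 7 was already up in the vehicle explant, by 4.26 in Mmp12 to 5.65 in Sprr1a. With CHIR99021, Rsad2, Lgals3, Mmp12 and Ifit1 rose further, Egr2 and Nupr1 had no inhibitor effect called, and Sprr1a was lower, a call that was lost without any 1 of the 4 explant arrays. Mmp12 had intensities of 10.9 and 7.64 in normal retina and 511 and 415 in CHIR99021 explants, and Egr2 had 9.92 and 5.26 in normal retina and 327 and 395 in CHIR99021 explants. Their normal levels lie at the low end of the array, as do those of Cxcl5, Nox4, Golm2, Ms4a6d, Mrc1, Fgf2, Birc5 and Rrm2 below, and no detection calls were used, so the sizes and ranks of rises from that level are uncertain.

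The largest falls were in genes of pigmented epithelium, of cones and of glia. Ttr, the carrier of retinol and thyroxine, had intensities of 7493 and 6134 in normal retina, 80.1 and 69.0 in vehicle explants and 59.6 and 99.9 in CHIR99021 explants. Rgr, an opsin of pigmented epithelium and Müller glia, had 1134 and 994 in normal retina, 27.7 and 29.2 in vehicle explants and 23.5 and 29.1 in CHIR99021 explants. Both kinds of explant lay far below the normal retina and overlapped each other. Differences from the normal retina were -6.46 for Ttr, -5.78 for Opn1sw, the short-wave cone opsin, -5.42 for the cone arrestin Arr3, -5.34 for Rgr, -5.02 for Fam107a, an actin-binding protein of glia, -4.74 for Opn1mw, the middle-wave cone opsin, and -4.74 for Glb1l3, a galactosidase-like gene of the outer retina.

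Each probe set was then placed by its 3 differences. It was counted as moved toward the normal level where culture with vehicle had changed it and CHIR99021 changed it the other way, and as further where both changed it the same way. The first kind goes by direction alone. A probe set that went past the normal level can therefore lie further from it than with vehicle, as Prss56 did. Within the first kind, it had returned where the 95% confidence interval of the CHIR99021 explant against the normal retina lay inside 1.5-fold either way, and was partly returned, or past the normal level, where it still differed on the side of the culture change or on the other side. The vehicle arrays enter both differences, with opposite signs, so error in them alone makes probe sets look as if they moved toward the normal level. No overlap or correlation is tested for this reason.

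Of all probe sets, 2437 moved toward the normal level, with 1782 returned, 437 partly returned, 131 past it and 87 undetermined. Of the 1782 that returned, 277 still differed from the normal retina by less than the margin. The median size of the vehicle change in these 1782 was 0.45, below the margin of 0.585 on the log2 scale. Most of them thus had an estimate inside the margin with vehicle already. A further 1961 moved away, 986 above and 975 below the normal level. Another 7543 were kept, that is, they differed from the normal retina the same way in both explants, with no inhibitor effect called. The other probe sets that culture changed had neither of the inhibitor's differences called and got no class. In 3052 the inhibitor alone made the difference, 1494 higher and 1558 lower. Among the 1206 probe sets that culture raised at least 2-fold, 664 (55.1%) were kept, 311 (25.8%) moved toward the normal level and 224 (18.6%) moved further, but 34 (2.82%) returned. Among the 784 that culture lowered at least 2-fold, 518 (66.1%) were kept, 157 further and 102 toward, with 23 returned. Without any 1 of the 6 B6 arrays, 761 of the 2437, 431 of the 1782 returned and 648 of the 1961 stayed in their class each time.

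**Figure D1:**
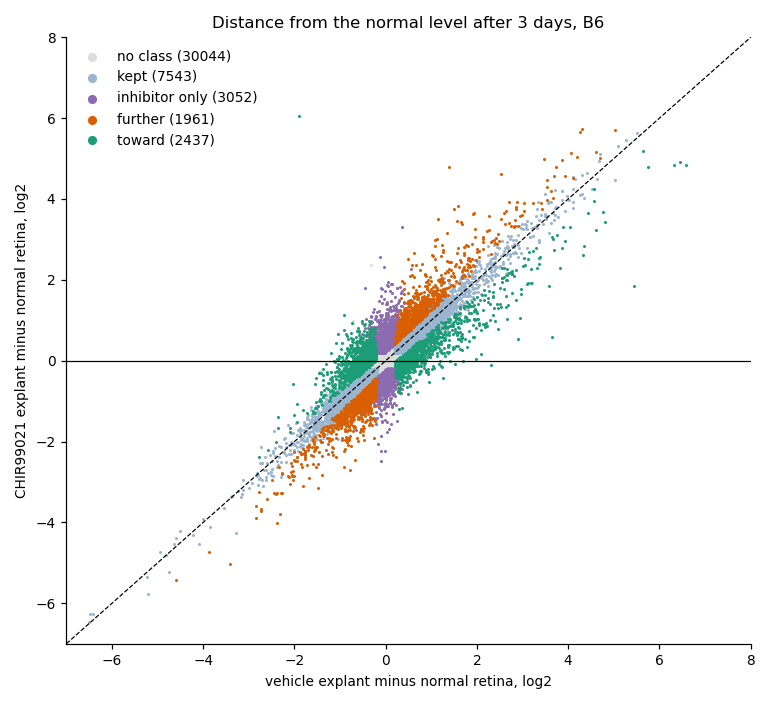
Each point is 1 of 45037 probe sets, with the vehicle explant minus the normal retina on the horizontal axis and the CHIR99021 explant minus the normal retina on the vertical axis, both log2; colours give the class and the number of probe sets in it. Points on the dashed line had the same distance from the normal level in both explants, the 2437 toward points lie off that line on the side of the horizontal line at 0, and the lone point at the top left, at -1.89 and 6.06, is Prss56.

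These differences are relative to the RMA scale, on which the median of all 18193 genes changed by -0.01. Centring each array on 9 housekeeping genes instead moved every difference from the normal retina by -0.45, every vehicle difference by -0.57 and every difference between explants by 0.13. B2m, a part of the class I antigen complex, rose by 2.67 and made most of that shift, since the mean of the other 8 genes was 0.17. Under that centring 2720 probe sets were higher and 34267 lower with CHIR99021 than in normal retina, 1633 and 39224 with vehicle, and 8382 and 2035 between explants. Rises from the normal level smaller than these shifts turn into falls, as those of Msmo1, Sqle and Znrf3 with CHIR99021 and those of Sesn2, Psat1, Rdh10, Nes and Mcm7 with vehicle.

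Gene lists are given by the number of members with a difference at an adjusted p under 0.05, with 1 probe set a gene, beside the share of all 18193 genes. In the CHIR99021 explant 21.0% of genes were higher and 21.7% lower than in the normal retina. In the vehicle explant 19.3% were higher and 16.9% lower. Between the explants, 8.59% were higher and 12.5% lower with CHIR99021. By class, 5.71% of genes moved toward the normal level and 5.90% moved further, and 3571 of the 18193 genes were kept. A list is described by its counts and median, and its members were not tested as a set.

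**Figure D2:**
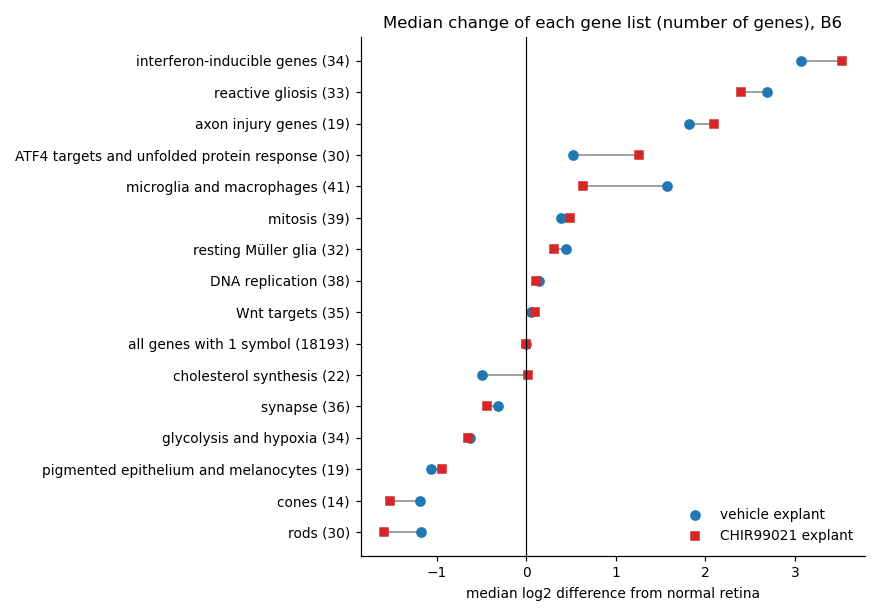
Median log2 difference from the normal retina of 15 gene lists and of all genes (rows, with the number of genes measured), in the vehicle explant (circles) and in the CHIR99021 explant (squares). The microglial median was 1.57 with vehicle and 0.63 with CHIR99021, that of cholesterol synthesis -0.50 and 0.02, and that of ATF4 targets 0.52 and 1.254.

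Many microglial and macrophage genes moved toward the normal level. Of 41 measured, 34 rose in the vehicle explant and 28 in the CHIR99021 explant, while 23 were lower with CHIR99021 than with vehicle and 1, Mrc1, was higher. All 23 counted as toward, beside 5.71% of all genes, 5 of them returned and 18 partly returned. Their summed intensity was 4170 and 4410 in normal retina, 13900 and 15100 with vehicle, and 8770 and 8940 with CHIR99021.

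Aif1, which encodes the microglial protein Iba1, had intensities of 23.2 and 22.4 in normal retina, 74.5 and 73.5 in vehicle explants and 20.4 and 25.1 in CHIR99021 explants. Csf1r, the receptor for the factors on which microglia depend, had 332 and 311 in normal retina, 802 and 706 in vehicle explants and 289 and 285 in CHIR99021 explants. In both genes the CHIR99021 explants lay at the level of the normal retina, and the vehicle explants lay above both. The difference from the normal retina was -0.01 ± 0.11 (SE; 95% interval -0.25 to 0.23) for Aif1 and -0.16 ± 0.08 (-0.34 to 0.01) for Csf1r, and that between explants -1.71 (adjusted p = 9.26e-06) and -1.39 (4.31e-06). Cx3cr1, the fractalkine receptor of microglia, returned too, with 1.02 in the vehicle explant and -0.20 (-0.44 to 0.05) in the CHIR99021 explant. Ctss, a lysosomal protease, went from 0.92 to -0.27, within the margin of return.

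Other members stayed above the normal level. Cd52, a surface glycoprotein of leukocytes, had intensities of 39.9 and 43.5 in normal retina, 308 and 314 in vehicle explants and 52.7 and 69.4 in CHIR99021 explants. Its rise of 2.90 with vehicle came down to 0.54, although the latter lost its call without B6 normal replicate 1 or without CHIR99021 replicate 2. The complement subunits C1qa, C1qb and C1qc, which microglia make, rose by 2.52, 2.68 and 2.50 with vehicle and by 1.32, 1.38 and 1.39 with CHIR99021. Lyz2, lysozyme, rose by 4.34 and 2.84, the integrin chain Itgb2 by 2.22 and 0.85, and Tyrobp, an adaptor of activating receptors, by 2.35 and 1.13. The chemokine Ccl6 rose by 5.76 and 4.78.

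Some macrophage genes did not come down. Cd68, a lysosomal protein of phagocytes, had intensities of 37.7 and 29.2 in normal retina, 397 and 357 in vehicle explants and 349 and 402 in CHIR99021 explants. Both kinds of explant overlapped and lay far above the normal retina. Clec7a, the receptor dectin-1, rose by 4.10 with vehicle and 3.93 with CHIR99021, and Ms4a6d, a membrane protein of macrophages, by 3.86 and 4.19. Mrc1, the mannose receptor, moved further, from 0.73 to 1.85. Siglech, a lectin of microglia, was lower than in the normal retina in both, at -0.54 and -0.54.

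**Figure D3:**
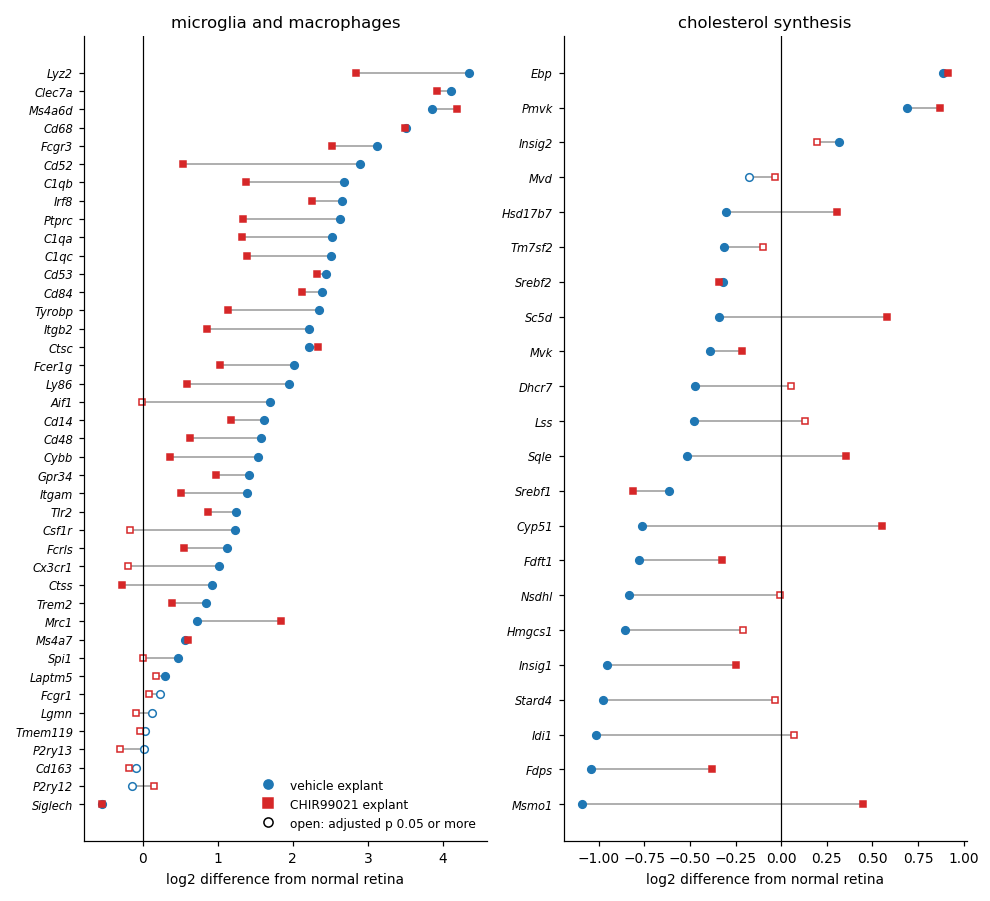
Each row is 1 gene, its level shown as log2 difference from the normal retina in the vehicle explant (circles) and the CHIR99021 explant (squares), for 41 microglial and macrophage genes and 22 genes of cholesterol synthesis, at the probe set with the highest mean of each gene; filled marks differed from the normal retina at an adjusted p under 0.05. Most red marks lie nearer to 0 than their blue marks on both panels, while Ms4a6d and Mrc1 lie further from 0 with CHIR99021 and Cd68 is at one place in both explants.

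Genes of cholesterol synthesis went down in culture and back up with CHIR99021. Of 22 measured, 18 were below the normal level with vehicle and 14 were higher with CHIR99021 than with vehicle, against 8.59% of all genes. These 14 moved toward the normal level, 11 of them returned and 3 past it. Against the normal retina 7 members were higher and 6 lower with CHIR99021, and the 6 became 1 without CHIR99021 replicate 1 and 3 without CHIR99021 replicate 2 or B6 normal replicate 1.

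Idi1, isopentenyl diphosphate isomerase, had intensities of 839 and 779 in normal retina, 420.3 and 379.6 in vehicle explants and 861 and 838 in CHIR99021 explants. The CHIR99021 explants lay beside the normal retina, and both above the vehicle explants. It changed by -1.02 with vehicle and differed by 0.07 (-0.11 to 0.26) with CHIR99021. Nsdhl, a sterol dehydrogenase, went from -0.84 to -0.01, Stard4, a carrier of sterols, from -0.98 to -0.03, Hmgcs1, the synthase at the start of the mevalonate pathway, from -0.85 to -0.21, Fdps, farnesyl diphosphate synthase, from -1.04 to -0.38, and Sqle, squalene epoxidase, from -0.52 to 0.36. Cyp51, lanosterol demethylase, went past the normal level with intensities of 230.5 and 215 in normal retina, 146 and 121 in vehicle explants and 431 and 414 in CHIR99021 explants at the probe set with its largest change. Its difference was 0.93 ± 0.10 from the normal retina and 1.67 from the vehicle explant. Msmo1, a sterol oxidase, went from -1.09 to 0.45, and the latter had no call when B6 normal replicate 2 or CHIR99021 replicate 1 was left out. Sc5d, a sterol desaturase, went from -0.34 to 0.58, and the former had no call without B6 normal replicate 1 or vehicle replicate 1. Abcg1, which exports cholesterol and is on the list of LXR targets, moved further down, -0.88 with vehicle and -1.89 with CHIR99021.

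Reactive gliosis genes stayed above the normal level. Of 33 genes measured 30 rose in the CHIR99021 explant. Of the 33, 15 were kept, beside 3571 of all 18193 genes. Another 9 moved toward the normal level, all of them partly returned, while 6 moved further. The 9 genes lower with CHIR99021 than with vehicle became 5 without vehicle replicate 2 or CHIR99021 replicate 1. Lcn2, lipocalin-2, had intensities of 192 and 163 in normal retina, 14296 and 16856 in vehicle explants and 4861 and 5785 in CHIR99021 explants. Timp1, an inhibitor of matrix proteases, had 32.3 and 21.4 in normal retina, 1919.6 and 2265 in vehicle explants and 641 and 894 in CHIR99021 explants. The CHIR99021 explants lay between the other groups in both genes, nearer to the vehicle explants on the log2 scale. Differences from the normal retina were 6.45 with vehicle and 4.90 with CHIR99021 for Lcn2, 6.31 and 4.85 for Timp1, 3.94 and 2.97 for the protease inhibitor Serpina3n, and 3.37 and 2.40 for ceruloplasmin, Cp. S100a6, a calcium-binding protein, rose by 5.02 and 4.46, with no inhibitor effect called.

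Gfap, the intermediate filament of reactive glia, moved further. Its intensities were 65.4 and 64.3 in normal retina, 367 and 246 in vehicle explants and 609.9 and 589 in CHIR99021 explants, without overlap between any 2 groups. It rose by 2.21 with vehicle and by 3.21 ± 0.18 with CHIR99021, and the explants differed by 0.995 (adjusted p = 0.00308). Socs3, a brake on cytokine signalling, rose by 4.70 and 5.01. Its difference between explants, 0.31, was lost without vehicle replicate 2.

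Among genes that returned or partly returned, the largest step toward the normal level was in Arg1, arginase. Its intensities were 14.1 and 16.6 in normal retina, 854 and 525 in vehicle explants and 36.5 and 84.1 in CHIR99021 explants. The CHIR99021 arrays lay between the other groups and were wide apart. Arg1 rose by 5.45 with vehicle and 1.86 ± 0.37 with CHIR99021, so that the explants differed by -3.59 (adjusted p = 0.000142). Chil1, a chitinase-like protein of activated macrophages and glia, rose by 3.64 and 0.59, Steap4, a metalloreductase, by 6.59 and 4.83, and Tgfbi, a matrix protein, by 3.58 and 1.84. The call of Chil1 against the normal retina ended without B6 normal replicate 2 or CHIR99021 replicate 2. Fxyd3, a modulator of the sodium pump, returned from 1.97 to 0.04 (-0.19 to 0.27), and Plpp3, a lipid phosphatase, from 1.41 to 0.0037 (-0.22 to 0.22). Among falls, Trib2, a pseudokinase, returned from -1.32 to -0.07, Cplx1, a regulator of transmitter release, from -1.06 to -0.16, and Nefh, the heavy neurofilament, came back in part from -1.37 to -0.47.

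**Figure D4:**
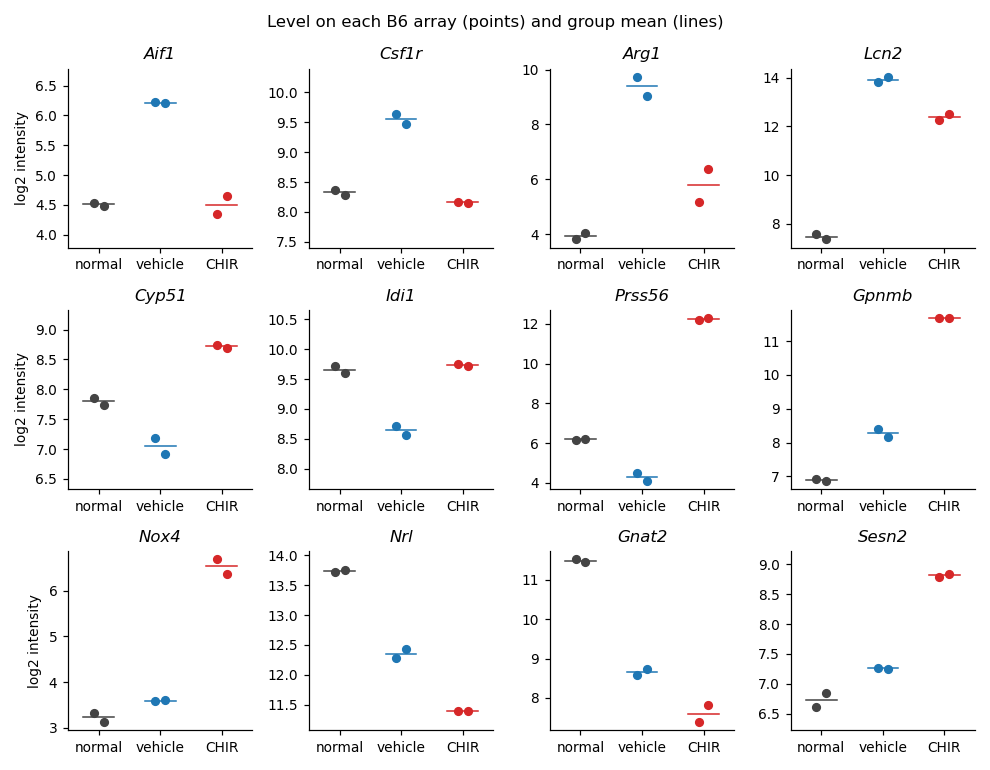
Log2 intensity of 12 genes on each of the 6 B6 arrays (points) with the mean of each group (lines), for normal retina, vehicle explant and CHIR99021 explant (CHIR); each panel has its own vertical range of at least 3 log2 units. Aif1, Csf1r and Idi1 lie at the normal level with CHIR99021, Arg1 and Lcn2 lie between, Cyp51 and Prss56 lie past it, and Gpnmb, Nox4, Nrl, Gnat2 and Sesn2 lie further away.

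Prss56 led the 131 probe sets that went past the normal level. Nkd1, a feedback inhibitor of the Wnt pathway, had intensities of 185 and 215 in normal retina, 93.2 and 99.6 in vehicle explants and 329 and 301 in CHIR99021 explants. Its 3 groups did not overlap, with vehicle lowest and CHIR99021 highest. At this probe set Nkd1 changed by -1.05 with vehicle and rose by 0.66 ± 0.10 with CHIR99021. At its other probe sets the CHIR99021 explant lay 1.41, 0.31 and 0.32 above the normal retina. In the same order, it lay 1.41, 0.58 and 0.16 above the vehicle explant, with neither 0.32 nor 0.16 called. A fall with vehicle of that size was thus at 1 probe set only. Map1b, a microtubule-associated protein of growing axons, went from -0.92 to 0.75, and Fxyd1, phospholemman, from 1.246 to -0.44. Mcm7, a subunit of the replicative helicase, went from 0.31 to -0.79, although its vehicle difference was not called when B6 normal replicate 2 or either vehicle array was left out.

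Many rod genes moved further from the normal level. Of 30 rod genes 29 were lower in the CHIR99021 explant than in the normal retina, with a median of -1.60 against -1.17 with vehicle, and 17 were lower than in the vehicle explant, against 12.5% of all genes. The 17 became 10 without CHIR99021 replicate 2 and 11 without vehicle replicate 2. Summed rod intensity was 225000 to 228000 in normal retina, 106000 to 111000 with vehicle and 76400 to 76600 with CHIR99021.

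Nrl, the transcription factor that sets rod identity, had intensities of 13514 and 13859 in normal retina, 4967 and 5522 in vehicle explants and 2676 and 2678 in CHIR99021 explants. The 3 groups formed 3 separate steps. The change was -1.39 with vehicle and -2.35 ± 0.11 with CHIR99021, and the explants differed by -0.97 (adjusted p = 0.000296). Gngt1, the gamma subunit of rod transducin, changed by -0.85 and -2.01, Pdc, phosducin, by -0.69 and -1.62, and Guca1a, which activates the cyclase that restores cGMP, by -1.59 and -2.56.

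Among 14 cone genes 12 fell and 1 rose in the CHIR99021 explant, and 8 moved further. Gnat2, the alpha subunit of cone transducin, had intensities of 2950.0 and 2801 in normal retina, 380.4 and 426 in vehicle explants and 167 and 224 in CHIR99021 explants, again in 3 steps. It changed by -2.84 with vehicle and -3.89 ± 0.14 with CHIR99021. Pde6h, the inhibitory subunit of the cone phosphodiesterase, changed by -2.37 and -4.01, and the inhibitor effect in it was lost without vehicle replicate 2, that in Arr3 without either vehicle array or CHIR99021 replicate 1, and that in Opn1mw without any 1 of the 4 explant arrays. Cone genes lower with CHIR99021 than with vehicle numbered 10, but 4 without vehicle replicate 2 or CHIR99021 replicate 1 and 6 without vehicle replicate 1. Of 36 synapse genes 24 fell and 13 moved further, and Cplx4, a complexin of photoreceptor terminals, changed by -1.16 and -1.74. The 15 synapse genes lower with CHIR99021 than with vehicle became 7 without vehicle replicate 2 and 9 without either CHIR99021 array.

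Targets of ATF4, the factor that carries out the integrated stress response, were listed together with genes of the unfolded protein response, and most were higher with CHIR99021. Of 30 measured, 26 were above the normal level in the CHIR99021 explant and 21 in the vehicle explant, and 22 were higher with CHIR99021 than with vehicle, beside 8.59% of all genes. Of these 22, 16 counted as further. The 22 became 12 without vehicle replicate 1 and 13 without CHIR99021 replicate 2. Their median was 0.52 with vehicle and 1.254 with CHIR99021.

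Sesn2, sestrin-2, a brake on mTORC1, had intensities of 97.3 and 115 in normal retina, 154 and 152 in vehicle explants and 445 and 459.5 in CHIR99021 explants. Each group was apart from the others, and the step to CHIR99021 was the larger. It rose by 0.53 with vehicle and 2.10 ± 0.12 with CHIR99021 (explant difference 1.56, adjusted p = 2.11e-05). Chac1, which degrades glutathione, rose by 2.14 and 2.94, and Slc7a11, the cystine importer, by 1.63 and 2.50, its explant difference being lost without vehicle replicate 1 or CHIR99021 replicate 2. Mthfd2, of mitochondrial one-carbon metabolism, rose by 1.56 and 2.67, Asns, asparagine synthetase, by 1.30 and 2.17, and Psat1, of serine synthesis, by 0.41 and 1.44. Nupr1, with 209 and 174 in normal retina, 7799 and 6829.5 in vehicle explants and 7881 and 8883 in CHIR99021 explants, was kept.

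Interferon-inducible genes were the list furthest above the normal level. Of 34 measured, 34 were higher in the CHIR99021 explant and 34 in the vehicle explant, each by at least 2-fold with CHIR99021, and 14 moved further. The 14 became 9 without vehicle replicate 1 or CHIR99021 replicate 2. Their median was 3.06 with vehicle and 3.53 with CHIR99021.

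Rsad2 had intensities of 33.2 and 21.2 in normal retina, 478 and 576 in vehicle explants and 1324 and 1497 in CHIR99021 explants. Irgm1, an immunity-related GTPase, had 69.6 and 72.9 in normal retina, 854 and 794 in vehicle explants and 1604 and 1562 in CHIR99021 explants. In both, the vehicle explants lay far above the normal retina and the CHIR99021 explants higher again. The CHIR99021 explant differed by 5.73 ± 0.17 and 4.47 ± 0.10 from the normal retina and by 1.42 and 0.94 from the vehicle explant (adjusted p = 0.000339 and 0.000154). Ifit2 rose by 2.63 and 3.69, Ifit1 by 4.61 and 5.16, and Cxcl10, a chemokine for T cells, by 3.46 and 4.98. Usp18, which dampens the interferon receptor, rose by 4.19 and 5.05, Rtp4, a chaperone of receptors, by 4.69 and 5.10, and the GTPase Iigp1 by 4.30 and 4.60, with the explant difference not called in the last pair and lost in Usp18 without vehicle replicate 1 or CHIR99021 replicate 2.

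Promoter letters of these groups were read from RefSeq windows of 250 bases before to 50 after each gene's start (GRCm38.p6), on both strands, for 14452 genes with a probe set and a window, counting a gene once if any of its windows held the letters. GAAA followed by any 2 bases and again GAAA, an interferon-response motif, was in the windows of 17 of 24 interferon-inducible genes and in 3.63% of all genes. TGATGNAAT or TTGCATCA, letters of the ATF4 element, were in 6 of 27 ATF4 and unfolded protein response genes and in 1.36% of all. TCACNCCAC or TCANCCCAC, of the sterol element, were in 1 of 18 cholesterol genes and 2.50% of all, and CTTTGAT or CTTTGAA, of TCF/LEF factors, in 5 of 22 Wnt targets and 8.08% of all. The 6 stretches printed here are from genes whose values are given above; motif letters are in capitals, those on the other strand as their reverse complement, and the text runs 5′ to 3′ along the gene's strand.
Rsad2 (chr12:26456538-26456597, minus strand): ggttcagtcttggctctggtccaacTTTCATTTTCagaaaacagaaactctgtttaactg
Ifit1 (chr19:34640779-34640838, plus strand): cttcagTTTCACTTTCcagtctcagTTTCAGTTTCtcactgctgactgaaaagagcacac
Irgm1 (chr11:48871421-48871480, minus strand): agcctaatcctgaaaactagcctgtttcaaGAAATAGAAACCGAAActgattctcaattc
Chac1 (chr2:119351023-119351082, plus strand): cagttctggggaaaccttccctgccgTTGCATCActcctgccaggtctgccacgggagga
Slc7a11 (chr3:50443627-50443686, minus strand): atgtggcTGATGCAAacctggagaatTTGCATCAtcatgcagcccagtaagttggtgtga
Hmgcs1 (chr13:119690188-119690247, plus strand): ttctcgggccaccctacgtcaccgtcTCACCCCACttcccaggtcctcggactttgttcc
A match is a description of letters, and binding was not measured.

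Axon injury genes rose and in part moved further. Of 19 measured, 17 were higher in the CHIR99021 explant than in the normal retina and 9 moved further. Sox11, a transcription factor of regrowing neurons, had intensities of 46.8 and 41.9 in normal retina, 583 and 512 in vehicle explants and 853 and 768 in CHIR99021 explants, with CHIR99021 highest. It rose by 3.62 with vehicle and 4.19 ± 0.09 with CHIR99021. The neuropeptide Gal rose by 4.11 and 4.51, and Gap43, a growth cone protein, by 1.82 and 2.10, with explant differences of 0.40 and 0.28 that were lost, in Gal without vehicle replicate 2 or CHIR99021 replicate 1 and in Gap43 without any 1 of the 4 explant arrays.

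Among all genes, the largest step further up was in Gpnmb, a glycoprotein of phagocytes and pigment cells. Its intensities were 121 and 117 in normal retina, 335 and 287 in vehicle explants and 3299 and 3288 in CHIR99021 explants at 1 of 2 probe sets. The CHIR99021 explants stood apart from both other groups, which also differed. The rise was 1.38 with vehicle and 4.79 ± 0.12 with CHIR99021. The second probe set of Gpnmb rose by 2.57 with CHIR99021 and differed by 2.69 between explants. Its vehicle difference was -0.12, not called, so that probe set fell in the class that the inhibitor alone moved. Dclk1, a microtubule-binding kinase, rose by 1.15 and 3.49 at 1 probe set, while of its other 8 probe sets 4 were higher than in the normal retina, at 3.38, 3.65, 3.43 and 0.92, and 2 were lower, at -0.26 and -0.79. Cyp1b1, a cytochrome P450, rose by 1.51 and 3.75, the neutrophil chemokine Cxcl5 by 1.58 and 3.83, and the interleukin-6 receptor Il6ra by 0.61 and 2.67. Mmp12 rose by 4.26 and 5.66 and Lgals3 by 5.03 and 5.72.

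Falls that CHIR99021 carried further were led by Olfm4, olfactomedin-4, at -0.79 with vehicle and -2.70 with CHIR99021. Its intensities were 211 and 244 in normal retina, 129 and 134 in vehicle explants and 34.4 and 35.5 in CHIR99021 explants. The collagen Col19a1 changed by -0.91 and -2.64, Fam107a by -3.42 and -5.02, and Ankrd37, a target of hypoxia-inducible factor, by -0.91 and -2.24.

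In the class that the inhibitor alone moved, Nox4, an NADPH oxidase, led the rises. Its intensities were 10.0 and 8.71 in normal retina, 11.9 and 12.2 in vehicle explants and 104 and 83.2 in CHIR99021 explants. The vehicle explants lay just above the normal retina and the CHIR99021 explants well above both. The difference was 0.37 with vehicle, not called, and 3.31 ± 0.13 with CHIR99021 (adjusted p = 2.14e-08). Golm2, a Golgi membrane protein, differed by -0.04 and 2.31, Trpm1, a channel of ON bipolar cells and melanocytes, by -0.45 and 1.80, Npy, neuropeptide Y, by 0.15 and 1.89, and Tubb3, a tubulin of neurons, by 0.04 and 1.44, with no vehicle change called in these 4 genes.

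Deptor, which binds and inhibits mTOR, led the falls. Its intensities were 142 and 114 in normal retina, 119.9 and 115 in vehicle explants and 23.8 and 22.1 in CHIR99021 explants, with normal retina and vehicle explants overlapping and CHIR99021 explants far below. The difference was -0.11 with vehicle and -2.47 ± 0.10 with CHIR99021. Frat1 and Frat2 encode proteins that bind GSK3. Frat1 had intensities of 104 and 102 in normal retina, 102 and 106 in vehicle explants and 36.7 and 35.0 in CHIR99021 explants, and differed by 0.02 and -1.52 ± 0.07. Frat2 differed by -0.11 and -1.85 ± 0.10. In these 3 genes no vehicle change was called.

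The targets of beta-catenin did not move as one. Of 35 measured, 13 were higher and 2 lower in the CHIR99021 explant than in the normal retina, beside 21.0% and 21.7% of all genes. The 2 became 0 or 1 without any 1 of the 4 arrays. Against the vehicle explant, 6 were higher and 2 lower, beside 8.59% and 12.5% of all genes. The 6 became 3 without vehicle replicate 1 or either CHIR99021 array, and the 2 became 1 without vehicle replicate 2 or CHIR99021 replicate 1. Axin2, a feedback inhibitor and standard readout of the pathway, had intensities of 189.9 and 225 in normal retina, 198 and 199.6 in vehicle explants and 238 and 245 in CHIR99021 explants. The CHIR99021 arrays were the highest, by a small margin. It differed by 0.22 ± 0.09 from the normal retina (adjusted p = 0.075) and by 0.28 ± 0.09 from the vehicle explant (adjusted p = 0.051), neither of them called. The explant difference was called with the replicate block (0.0361), the filter on dim probe sets (0.0201), a trended and robust eBayes (0.0296) and centring on housekeeping genes (0.0205), and its adjusted p ran up to 0.184 without 1 array. The difference from the normal retina was called without B6 normal replicate 2 (0.0145) and with the filter (0.0356), and turned to -0.23 under that centring. Against the vehicle explant Lef1, a partner of beta-catenin, differed by 0.39, the factor Sp5 by 0.46 and Znrf3, which removes Wnt receptors, by 0.38. The call of Znrf3 was lost without CHIR99021 replicate 2, that of Lef1 without vehicle replicate 1 or either CHIR99021 array, and that of Sp5 without either vehicle array or CHIR99021 replicate 1. Nkd1 rose against the vehicle explant by 1.71, and 2 of its other 3 probe sets also rose. Among 40 components of the pathway 10 were higher and 4 lower than in normal retina, beside 21.0% and 21.7% of all genes. Their median was 0.09 with CHIR99021 and 0.09 with vehicle. Fzd6, a Wnt receptor, rose by 1.75 with CHIR99021 and by 1.09 against vehicle, while its vehicle rise of 0.66 lost its call without any 1 of the 4 arrays compared.

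Genes that mark Müller glia moved both ways. Of 32 measured 17 were higher and 9 lower in the CHIR99021 explant, with a median of 0.31 that became -0.14 under centring on housekeeping genes. Glul, glutamine synthetase, had intensities of 11506 and 11419.6 in normal retina and 5117 and 4893 in CHIR99021 explants and changed by -1.20, or by -1.29 at its other probe set, while the explants differed by -0.32 at the first and 0.26 at the other. Sox9, a transcription factor of these cells, had 123 and 139.6 in normal retina and 270.3 and 285 in CHIR99021 explants and rose by 1.08. Neither pair of groups overlapped. Vim, vimentin, rose by 2.05 and Crym, which binds thyroid hormone, by 3.98, both as in the vehicle explant (1.94 and 4.01). Ptgds, prostaglandin D synthase, changed by -2.83. The transporter Abca8a moved further, from -1.40 to -2.82, and so did Rdh10, a retinol dehydrogenase, upward from 0.40 to 1.93, the former without a call when B6 normal replicate 2 or either vehicle array was left out. Fgf2, a growth factor of stressed retina, rose by 1.18, and Nes, nestin, by 0.48.

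Genes of glycolysis and markers of pigmented epithelium lay low in both explants. Of 34 genes of glycolysis and hypoxia 26 were lower in the CHIR99021 explant and 16 of all 34 were kept, beside 3571 of all 18193 genes kept. Hk2, the hexokinase of photoreceptors, had intensities of 4676 and 5148 in normal retina, 980.5 and 1105 in vehicle explants and 1012 and 1005 in CHIR99021 explants, with the explants overlapping. It changed by -2.24 and -2.28, Bnip3, a mitophagy receptor, by -1.20 and -1.14, and Pdk1, which holds back pyruvate oxidation, by -0.94 and -1.33. Of 19 markers of pigmented epithelium and melanocytes 15 were lower in the CHIR99021 explant, and 0 differed between explants by limma, with 2 at an unadjusted p under 0.05. Rpe65, the isomerase of the visual cycle, had 603 and 484 in normal retina, 20.4 and 23.1 in vehicle explants and 23.6 and 23.1 in CHIR99021 explants. It changed by -4.53, Lrat, which stores retinol as esters, by -3.92, and Dct, of melanin synthesis, by -3.65. Ttr and Rgr above are among these 19 markers, so the fall of their summed level is not separate from the falls of Ttr and Rgr. The part of epithelium lost in culture in those falls was not tested. Hmox1, heme oxygenase, was kept as well, rising by 4.11 and 4.55.

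Crybb1, a crystallin of the lens, had intensities of 62.5 and 68.9 in normal retina, 51.8 and 53.8 in vehicle explants and 329 and 346 in CHIR99021 explants, with no overlap between the CHIR99021 explants and the others. Its difference from the normal retina was 2.36 ± 0.85 (adjusted p = 0.0495), where the pooled spread includes the 129 normal array that stands apart, and the call was lost when any 1 of the 4 arrays compared was left out.

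Many mitosis genes were higher than in normal retina in both B6 explants. Of 39 mitosis genes 22 were higher and 2 lower in the CHIR99021 explant than in normal retina, and of 38 replication genes 12 were higher and 4 lower, and without B6 normal replicate 1 the 2 became 1 and the 4 became 1. With vehicle 20 mitosis genes and 12 replication genes were higher. The median of the replication list was 0.11, and -0.34 under centring on housekeeping genes. Mki67, which encodes Ki67, had intensities of 23.6 and 21.3 in normal retina, 116 and 98.3 in vehicle explants and 122 and 118 in CHIR99021 explants. Both kinds of explant lay at several times the normal level, the CHIR99021 arrays just above the vehicle arrays. It rose by 2.26 with vehicle and 2.42 ± 0.14 with CHIR99021, and Birc5, survivin, by 2.28 and 2.25. Rrm2, of ribonucleotide reductase, rose by 2.82 and 3.48, and Uhrf1, which maintains DNA methylation, by 1.40 and 1.39. Pbk, a mitotic kinase, rose by 1.16 and 1.97, and Cenpf, a centromere protein, by 1.07 with CHIR99021 alone (0.05 with vehicle, not called). Bub1b, of the spindle checkpoint, changed by -0.51 and -1.14.

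In G1, Ccnd1, cyclin D1, had intensities of 419 and 330.0 in normal retina, 856 and 1036 in vehicle explants and 1092 and 1106 in CHIR99021 explants. The explants lay above the normal retina, CHIR99021 highest. It rose by 1.34 and 1.56 ± 0.13, with no inhibitor effect called (0.22, adjusted p = 0.292). Ccnd3, cyclin D3, had 280.0 and 320.3 in normal retina, 795 and 925 in vehicle explants and 499 and 537 in CHIR99021 explants, with CHIR99021 between the others. It rose by 1.52 and 0.79 ± 0.10, so that it moved toward the normal level. Cdkn1a, the inhibitor p21, rose by 2.39 and 2.45.

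The same change was then set beside that of 129. The change from normal retina to CHIR99021 explant differed between the strains in 1473 probe sets (3.27%), 776 with a higher and 697 with a lower change in 129. Of 39 mitosis genes 29 had a higher change in 129, and of 38 replication genes 20, beside 2.41% of all genes. With each of the 8 arrays compared left out in turn, among them the 129 normal array with the high lens markers, these counts were 24 to 32 and 14 to 20. In 129 itself 36 mitosis genes and 32 replication genes were higher than in its normal retina, with medians of 1.93 and 0.77. Mki67 had intensities of 17.8 and 22.2 in 129 normal retina and 578 and 436 in 129 CHIR99021 explants. The strains started at like levels, and the 129 explants lay several times above the B6 explants. The difference of the changes was 2.24 ± 0.20 (adjusted p = 0.000298), and 1.92 for Birc5, 2.19 for Rrm2, 2.92 for Uhrf1, 2.26 for Cenpf, 1.96 for Pbk, 1.34 for Mcm7 and 1.18 for Ccnd1.

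**Figure D5:**
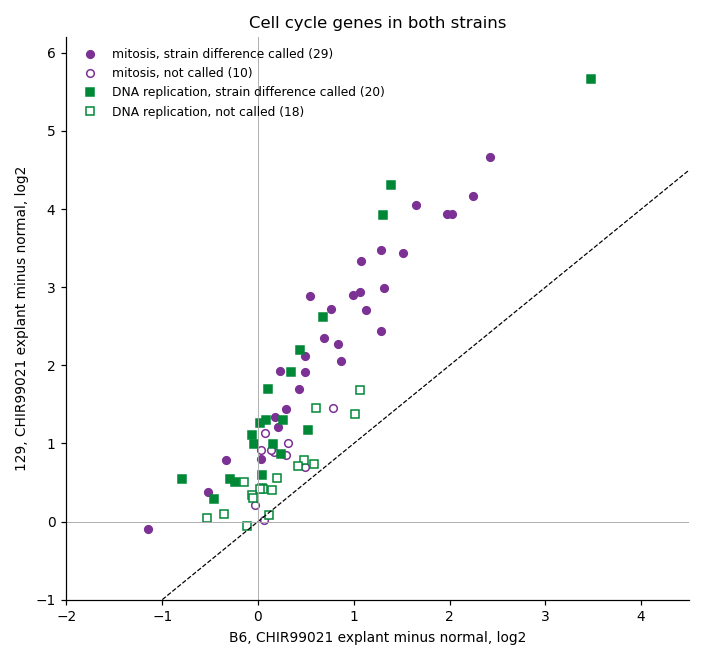
CHIR99021 explant minus normal retina in B6 (horizontal, log2) and in 129 (vertical, log2) for 39 mitosis genes (circles) and 38 replication genes (squares), filled where the difference between strains had an adjusted p under 0.05 (29 and 20 genes); the dashed line marks equal change. Of the 77 points 75 lie above the line, that is, with a higher change in 129, and Foxm1 and Orc1 lie below it.

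The largest strain differences reached beyond the cell cycle. Ifi202b, an interferon-inducible gene, had B6 intensities of 13.5 and 14.0 in normal retina and 15.7 and 20.8 in CHIR99021 explants, near the low end of the array, and 14.1 and 12.6 in 129 normal retina and 789.7 and 782 in 129 CHIR99021 explants. Its difference of changes was 5.48. Spc25, of the kinetochore, had intensities of 2327 and 2759 in normal retina and 381 and 391 in CHIR99021 explants of B6, and 42.3 and 50.9 in 129 normal retina and 289 and 222 in 129 CHIR99021 explants. Whether the probes read both strains alike was not tested for the genes of this paragraph. At this probe set, the intensity of Spc25 in normal retina was far lower in 129, and it went down in B6 and up in 129. It changed by -2.71 in B6, and the difference of the changes was 5.16, and 1.40 at its other probe set. Its B6 fall was also called at that probe set, at -1.60. Hmga2, a chromatin protein of stem cells, changed more in 129 by 3.55, Mcm6, of the replicative helicase, by 3.34 and Pttg1, securin, by 3.03. Pttg1 had intensities of 1002 and 805 in normal retina and 832 and 965 in CHIR99021 explants of B6, and 33.4 and 22.2 in 129 normal retina and 253 and 194 in 129 CHIR99021 explants, so its level was lower in 129 in both states. Changes were lower in 129 in Nox4 (-3.13), Cxcl5 (-2.83) and Golm2 (-2.55). Golm2 had intensities of 14.1 and 13.02 in normal retina and 61.2 and 73.5 in CHIR99021 explants of B6, and 73.1 and 69.9 in 129 normal retina and 63.6 and 58.0 in 129 CHIR99021 explants, with the strains far apart in normal retina and close together with CHIR99021. Nox4, the first of the genes that the inhibitor alone raised in B6, had intensities of 9.79 and 9.8 in 129 normal retina and 10.3 and 12.0 in 129 CHIR99021 explants, and its 129 groups lay close together.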

How the data were processed

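RNA of 12 neural retinas was hybridised to Affymetrix Mouse Genome 430 2.0 arrays after 3′ labelling. The authors normalized the 12 arrays together by RMA (software and version not given in the sources used here). They deposited linear intensities, which were taken to log2 here. RMA makes the arrays' distributions alike, so a shift of most transcripts one way cannot be seen. The number of arrays, 2 a group, limits the precision. The 64 control probe sets of 45101 were left out. Of the 45037 others, 34945 had 1 gene symbol in the platform annotation, 932 several and 9160 none, and 34741 got their RefSeq symbol through the gene ID. Lists used the probe set with the highest mean of each of 18193 genes.

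A mean was fitted to each of the 6 groups over all 12 arrays (limma 3.58.1 in R 4.3.3, lmFit and eBayes, 6 residual degrees of freedom), and p-values were adjusted by Benjamini-Hochberg over all 45037 probe sets in each comparison. The fit was also run on simulated arrays with far fewer changed probe sets than these data, and no result here rests on that run. Promoters and figures used Python 3.11.15 and matplotlib 3.10.9. The genes named were the largest changes from the normal retina, the largest changes between explants by class and direction, members of each list with the largest values, 12 genes that the study's text names, and the largest strain differences; some were left out for space or for calls that ended without 1 array. Members and lists were chosen with earlier results of these data known. Alternatives were other scalings (cyclic loess, housekeeping genes), other sets of arrays in the fit, a trended and robust eBayes, a filter on dim probe sets, other margins and minimum changes, all probe sets of a gene, a replicate block, and each array left out.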

Additional observations from a re-analysis of the deposited data

Results flagged for a closer look

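The change from normal retina to CHIR99021 explant differed between B6 and 129 in 1473 probe sets by the fit's test of the difference itself. Among the genes named above, the change was higher in 129 on the log2 scale by 5.48 in Ifi202b, 5.16 in Spc25, 3.55 in Hmga2, 3.34 in Mcm6, 3.03 in Pttg1, 2.92 in Uhrf1, 2.26 in Cenpf, 2.24 in Mki67, 2.19 in Rrm2, 1.96 in Pbk, 1.92 in Birc5, 1.34 in Mcm7, 1.18 in Ccnd1 and 1.05 in Bub1b. It was also higher by 1.81 in Dct, 1.252 in Rtp4, 1.14 in Ifit1, 1.03 in Nes and 0.75 in Sp5. Differences with a lower change in 129 were -3.13 in Nox4, -2.83 in Cxcl5, -2.55 in Golm2, -2.18 in Cxcl10, -2.10 in Cd52, -1.99 in Clec7a, -1.60 in Lgals3 and -1.24 in Mrc1. Smaller ones were -0.99 in Fgf2, -0.79 in Map1b, -0.78 in Sesn2, -0.73 in Socs3, -0.72 in Ccnd3 and -0.68 in Plpp3. Of these, the calls of Plpp3, Map1b, Sesn2, Rtp4, Dct, Sp5, Ccnd3 and Fgf2 were lost without 1 or more of the 8 arrays compared.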

How the results depend on the processing

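Each count of calls stood within 1.5 times its main value under cyclic loess and the filter on dim probe sets where these gave a value. Centring on housekeeping genes gave 2720 higher and 34267 lower probe sets against the normal retina, 1633 and 39224 with vehicle, 8382 and 2035 between explants, and 426 and 3217 between strains, with 7331 toward the normal level (4432 returned, 2521 partly returned, 239 past it), 990 by the inhibitor alone and 28774 kept. With only the groups compared in the fit, 430 and 399 differed between strains, 1589 were toward, 1026 returned and 83 past. With only the 6 B6 arrays 1131 returned. A trended and robust eBayes gave 1329 and 1111 between strains. A narrower margin of return gave 897 returned and 239 past, and a wider one of 2-fold gave 222 partly returned and 18 past. With changes of at least 1.5-fold, 507 were toward, 248 returned, 167 partly returned, 29 past, 353 further, 1162 by the inhibitor alone and 4135 kept.

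Without 1 array, counts ran from 6249 to 7036 higher and 6741 to 7402 lower against the normal retina, 5060 to 5750 and 5478 to 6123 with vehicle, 2460 to 2752 and 2296 to 2779 between explants, and 319 to 830 and 289 to 796 between strains. By class they ran from 1456 to 2205 toward, 975 to 1470 returned, 221 to 493 partly returned, 84 to 136 past, 897 to 1791 further, 1816 to 3070 by the inhibitor alone and 6052 to 7605 kept. Vehicle replicate 2 gave the lowest counts of toward (1456), further (897), past (84) and explant differences (2460 and 2296), CHIR99021 replicate 1 those of returned (975) and partly returned (221), CHIR99021 replicate 2 that of the inhibitor alone (1816), and 129 CHIR99021 replicate 1 those between strains (319 and 289). The counts of toward also moved by over 1.5 times without vehicle replicate 1 (1536) or CHIR99021 replicate 1 (1471), those of further without vehicle replicate 1 (1003) or CHIR99021 replicate 2 (1161), and those of the inhibitor alone without vehicle replicate 2 (2024) or CHIR99021 replicate 1 (2018). The cause was not tested.

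The arrays share replicate numbers. The difference between the arrays within a group was correlated between groups, at -0.107 to 0.0436 over 15 pairs of groups. These values showed no shared replicate pattern. Each group gave only a single such difference, so they cannot decide whether the numbers pair the arrays. With the replicate block 7798 and 8505 probe sets differed from the normal retina, 6527 and 7244 with vehicle, 3958 and 3816 between explants and 682 and 576 between strains, with 2232 toward and 1806 further.

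Under centring on housekeeping genes these list medians against the normal retina turned sign: -0.14 for resting Müller glia, -0.0019 for AP-1, -0.32 for ERK feedback, -0.31 for progenitors, -0.34 for DNA replication, -0.0642 for G1 regulators, -0.28 for oxidative stress, -0.29 for the respiratory chain, -0.19 for matrix, -0.14 for YAP targets and -0.32 for growth factors, and 0.0205 between explants for horizontal cells. The housekeeping list's own median became 0.21 with all probe sets of a gene. Single genes that turned sign with CHIR99021 were Fxyd3 (-0.41), Plpp3 (-0.45), Msmo1 (-4e-04), Ifi202b (-0.0489), Idi1 (-0.38), Sqle (-0.0915), Lef1 (-0.34) and Znrf3 (-0.10), and with vehicle Frat1 (-0.55), Ifi202b (-0.31), Sesn2 (-0.0416), Psat1 (-0.17), Rdh10 (-0.17), Sp5 (-0.48), Nes (-0.24), Cenpf (-0.52), Mcm7 (-0.26), Tubb3 (-0.54) and Npy (-0.43). That centring subtracts 1 value from all probe sets of an array.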

Other observations

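Other lists are given by their counts against the normal retina, beside 21.0% of genes higher and 21.7% lower. Respiratory chain genes higher than in normal retina numbered 11 of 35 with CHIR99021 and 5 with vehicle, and 10 were higher with CHIR99021 than with vehicle. The 11 became 5 without CHIR99021 replicate 2, and the 10 became 3 without either vehicle array, 5 without CHIR99021 replicate 1 and 1 without CHIR99021 replicate 2. Of 28 genes of cell death and p53 targets 19 were higher and 3 lower, and 8 moved further. The 8 genes higher with CHIR99021 than with vehicle became 4 without vehicle replicate 1 and 5 without any other explant array. Of 22 genes of oxidative stress and metallothioneins 16 were higher with vehicle and 10 with CHIR99021, and 7 moved toward the normal level. The 7 genes lower with CHIR99021 than with vehicle became 4 without vehicle replicate 2 or CHIR99021 replicate 1. Of 19 clock genes 11 were lower and 1 higher with CHIR99021. Of 20 bipolar genes 11 were lower with CHIR99021 and 4 with vehicle. Of 18 amacrine genes 10 were lower with CHIR99021 and 5 with vehicle, and of 23 ganglion cell genes 15 and 13. Of 15 genes of antigen presentation 10 were higher. Of 14 complement genes 8 were higher and 4 moved toward. Of 32 cytokines and chemokines 18 were higher, of 25 AP-1 and immediate early genes 15, of 30 genes of TGF-beta and BMP signalling 16, of 37 matrix genes 17, and of 29 progenitor genes 12. Of 24 vessel genes 10 were lower and 2 higher, and of 16 lens genes 2 were higher; each 2 became 1 without either B6 normal array or CHIR99021 replicate 2. Of 6 T cell genes 1 was lower, and 0 without B6 normal replicate 2 or CHIR99021 replicate 1, and the 3 erythrocyte genes had a median difference of 0.04.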
